A study of Mus musculus with 8 samples.

Results

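The genes described here encode the coat proteins of the hepatocyte lipid droplet and the proteins that set the rate of its breakdown. The set held 10 genes, chosen by symbol: the perilipins Plin2, Plin3, Plin4 and Plin5, the CIDE genes Cidea, Cideb and Cidec, the lipase gene Pnpla2, and G0s2 and Hilpda, whose products inhibit that lipase. Each symbol was found on exactly 1 transcript cluster (a group of probes that reads a single transcribed locus), so 10 of the 35556 clusters and 10 of the 19938 genes with a single symbol are described. The rule uses no measured value, but the members were chosen with earlier results of these data known.

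Liver RNA came from male C57Bl/6J mice on a low-fat diet (LFD, 13% of calories as fat) or a high-fat diet (HFD, 42%). Their deionized drinking water was plain or held sodium arsenite at 3 mg inorganic arsenic per litre (As). Diet and water were crossed to give 4 groups of 10 mice: LFD and LFD+As on the low-fat diet, HFD and HFD+As on the high-fat one. The labels' protocols state 10 weeks of feeding and exposure, the sample source states 90 days, and ages of the mice are not given in the sources used here. Each group gave 2 arrays (replicate 1 and replicate 2), each a pool of equal RNA amounts from 5 mice, so every spread below is one between pools. In whole liver, a change in the number of cells of a type cannot be told apart from a change in RNA per cell.

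A lipid droplet is a core of triglyceride and sterol ester under a phospholipid monolayer, and perilipins bind that surface. Plin2 is the main perilipin of hepatocytes, and its transcript is a known target of PPAR-alpha, the nuclear receptor of fatty acids. Plin5, abundant in tissues that oxidise fat, binds droplets near mitochondria and restrains lipolysis. Pnpla2 encodes adipose triglyceride lipase, which removes the first fatty acid from triglyceride. CIDE proteins join droplets and enlarge them, and Cideb also takes part in loading very low density lipoprotein with lipid.

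As a check of the tissue, 7 of 8 hepatocyte markers were on the array and averaged between 13.62 and 13.83 on the log2 signal scale in every array, and Alb was at 14.44 to 14.48. In HFD+As against LFD 6 of the 7 were negative and 1 fell (Cps1, -0.39, adjusted p = 0.0391 with limma). Of all genes tested, 33.4% were positive and 16.0% passed the test in that comparison. Of 10 adipocyte markers, 9 were on the array and 5 lay among the 60% of genes with the highest mean signal, which were tested. The adipocyte markers averaged 7.38 to 7.51 over the 8 arrays, a mean that mixes bright and dim genes. The 5 tested had mean signals of 11.77 (Pck1), 8.375 (Lipe), 8.03 (Fabp4), 7.31 (Plin1) and 7.04 (Slc7a10). Retn had a mean of 6.90. Adipoq (5.36 to 5.90), Lep (5.77 to 6.09) and the brown fat gene Ucp1 (5.89 to 6.23) stayed below the lowest mean signal tested, 6.975. No detection calls were used here, so dim signals may or may not exceed background.

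Of the 10 droplet genes, 8 were bright enough to be tested, while Hilpda and Cidea had mean signals of 6.81 and 5.75, below 6.975. Group differences were tested over 11963 genes with limma in one fit to all 8 arrays, and a difference was called at a Benjamini-Hochberg adjusted p below 0.05. No droplet gene was called for LFD+As or for HFD against LFD, where 0.0669% and 0.460% of all genes were (401 and 1232 genes had an unadjusted p under 0.05). G0s2 and Plin5 rose in HFD+As against LFD, 2 of 8 tested, beside 16.0% of all genes. Plin2 fell in HFD+As against HFD, 1 of 8, beside 3.63% of all genes. None was called for HFD+As against LFD+As (10.3% of all genes called), and none for the average arsenite effect over both diets (0.568%). Plin2 and G0s2 rose with the average high-fat effect over both waters, 2 of 8, beside 7.65% of all genes. For the interaction (how far the arsenite difference on the high-fat diet departs from that on the low-fat diet), limma called 0% of all genes, although 1659 had an unadjusted p under 0.05.

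The sequence upstream of the 3 genes with a called difference is shown, so that Plin5 and G0s2, which rose together, can be set beside Plin2. Windows are the 250 bases before a transcription start in RefSeq (GRCm38.p6), without the bases that lie inside the gene as RefSeq bounds it, and for Plin5 the window further upstream of 2. All 3 are on the minus strand and printed 5′ to 3′, Plin2 at chr4:86670218-86670309 (92 bases), Plin5 at chr17:56117607-56117798 (192 bases) and G0s2 at chr1:193273189-193273438 (250 bases). Capitals mark matches, on either strand, to the nuclear receptor half-site AGGTCA or the CCAAT box CCAAT.
Plin2: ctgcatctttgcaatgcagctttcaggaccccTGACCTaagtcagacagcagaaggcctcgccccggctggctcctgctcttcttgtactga
Plin5: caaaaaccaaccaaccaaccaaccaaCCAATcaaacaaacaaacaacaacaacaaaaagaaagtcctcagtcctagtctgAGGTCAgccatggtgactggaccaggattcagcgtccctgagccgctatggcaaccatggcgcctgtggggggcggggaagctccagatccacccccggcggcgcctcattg
G0s2: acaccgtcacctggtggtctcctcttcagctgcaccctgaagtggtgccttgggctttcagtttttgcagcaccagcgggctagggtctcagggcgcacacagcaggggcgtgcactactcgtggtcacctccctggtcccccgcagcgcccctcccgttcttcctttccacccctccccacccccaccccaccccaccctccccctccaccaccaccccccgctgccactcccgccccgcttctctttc

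Counted back from the start, Plin2 has the half-site at -218 to -213, read on the opposite strand, and Plin5 at -170 to -165. Plin5 also has a CCAAT box at -224 to -220, and G0s2 has neither set of letters in this window. Not wholly within the printed bases are a CCAAT box of Plin2 at -73 to -69 and another of Plin5, on the opposite strand, at -62 to -58. The promoter table had 12 windows for 9 of the 10 genes, with no match for Cidea. Over the full 250 bases the half-site was in 2 of the 12, and in 14.0% of all 32851 windows of that length. CCAAT was in 4 of the 12 (Plin2, Plin3, Plin4 and Plin5) and in 33.8% of all. Of the other motifs searched on both strands, the hypoxia response core ACGTG was in 1 of the 12 (Hilpda, 16.6% of all), the TATA box TATAAA in 1 (Cideb, 12.4%) and the sterol response element TCACNCCAC in 0 (1.05%). No marked match overlapped another. A match describes these letters only.

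**Figure D1:**
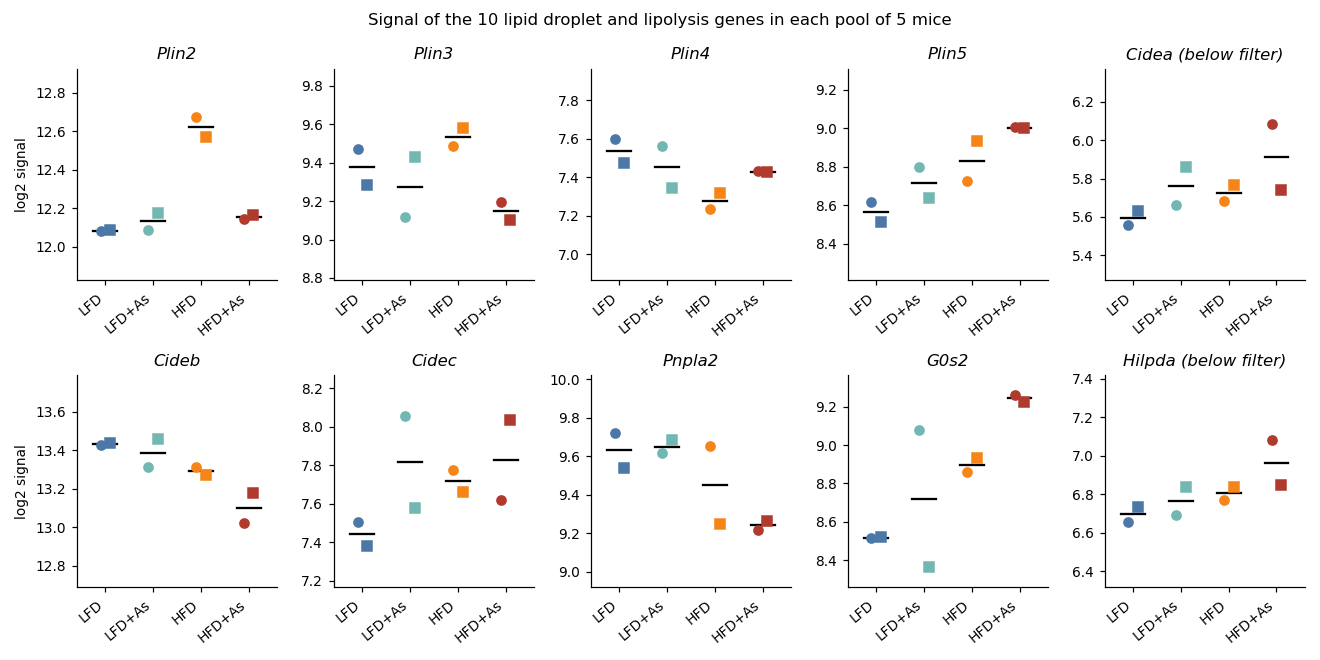
Log2 signal (y axis, each panel spanning 1.1 units) of the 10 genes in each of the 8 arrays, grouped by diet and water; circles are replicate 1, squares replicate 2 and bars group means of 2 arrays. Plin2 stood apart in both HFD pools (12.67 and 12.57), while G0s2 and Plin5 were highest and Pnpla2 and Cideb lowest on average in HFD+As.

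Plin2 was higher in the high-fat livers that drank plain water, and the high-fat livers with arsenite were near the low-fat level. Its log2 signal was 12.08 and 12.08 in the LFD pools, 12.08 and 12.18 in the LFD+As pools, 12.67 and 12.57 in the HFD pools, and 12.14 and 12.17 in the HFD+As pools. Both HFD pools thus lay above all 6 other pools, which spanned 12.08 to 12.18. Against LFD the HFD mean was 0.54 log2 units higher (SE 0.11, 95% interval 0.30 to 0.78, a 1.45-fold difference), which missed the threshold over all genes (adjusted p = 0.0568). It passed with an intensity trend and robust prior in limma (adjusted p = 0.0118). It did not pass with quantile normalization (0.52, adjusted p = 0.063) or a replicate block (adjusted p = 0.0873). A fit to the 2 groups (adjusted p = 0.0951) and no filter on dim genes (adjusted p = 0.137) gave no call either. With any 1 array left out it was not called and lay between 0.49 and 0.59. HFD+As against HFD gave a fall of 0.47 (fold 0.723, SE 0.11, adjusted p = 0.0416). HFD+As stood 0.07 above LFD (95% interval -0.17 to 0.31, adjusted p = 0.716). The interaction itself was -0.52 (SE 0.16, unadjusted p = 0.0056) and was not called (adjusted p = 0.243). The average high-fat effect of 0.28 (SE 0.08, adjusted p = 0.0454) therefore pools a large difference on plain water with one of 0.02 under arsenite.

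The Plin2 call for HFD+As against HFD held in 4 of 16 alternative settings and lay between -0.52 and -0.28. It was lost without HFD replicate 1 (-0.42, adjusted p = 0.359), HFD+As replicate 1 (-0.46), HFD+As replicate 2 (-0.48) or any LFD or LFD+As array (-0.47 in each). Over 11956 genes, the deviation from a gene's mean fell with its genomic span in both HFD+As arrays (Spearman rho -0.454 and -0.293) and ranged from -0.136 to 0.346 in the other arrays. Plin2 has the longest span of the set (43308 bases, against a median of 7686 for the 10 and 17707 for all genes). With the array-wise trend on span removed, the fall was 0.28 (adjusted p = 0.189), while the HFD difference from LFD was 0.53 and passed the threshold narrowly (adjusted p = 0.05 as rounded). Quantile normalization moved the median of all genes in this comparison from -0.125 to -0.011, and Plin2 from -0.47 to -0.40 (adjusted p = 0.0752). The average high-fat effect on Plin2 was not called without any 1 array (0.26 to 0.31) or with a replicate block (0.28, adjusted p = 0.0636). With the block, the fall against HFD had adjusted p = 0.0558.

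Macrophage markers, from cells that also carry Plin2, had their highest mean in HFD and their lowest in HFD+As. All 8 markers were tested, and their mean log2 signal was 9.42 and 9.34 in the LFD pools, 9.20 and 9.47 in the LFD+As pools, 9.69 and 9.47 in the HFD pools, and 9.23 and 9.08 in the HFD+As pools. In HFD against LFD, 6 of 8 were positive with none called (median 0.22). In HFD+As against HFD, 7 of 8 were negative (median -0.49, all genes -0.125 with 27.7% positive) and 2 were called (3.63% of all genes), Adgre1 (-0.61, adjusted p = 0.0403) and Cd5l (-0.59, adjusted p = 0.0368). In HFD+As against LFD, Marco rose by 0.54 (adjusted p = 0.00997) and Csf1r fell by 0.66 (adjusted p = 0.0283), of 8 tested beside 16.0% of all genes. For these macrophage marker calls the alternative settings are not reported here. In HFD+As against HFD, 434 of all genes were called, 42 with the span trend removed and 18 with quantile normalization. The stellate markers, also from cells that store lipid, averaged 9.04 and 8.91 in HFD+As and 9.11 to 9.22 in the other arrays, and 7 of 8 were negative in HFD+As against HFD (median -0.19) with none called. The part of either cell type in the Plin2 values was not tested.

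**Figure D2:**
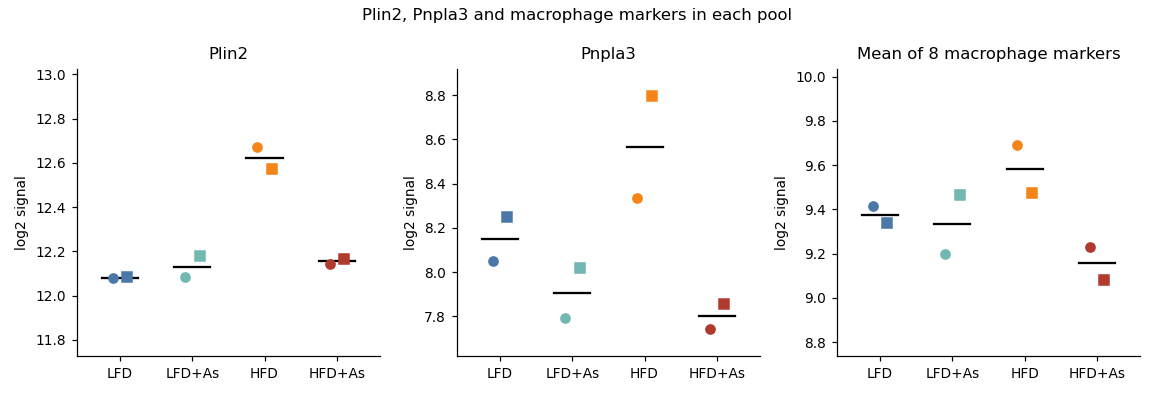
Log2 signal (y axis, each panel spanning 1.3 units) of Plin2, of the phospholipase family gene Pnpla3 and of the mean of 8 macrophage markers in each array; circles are replicate 1, squares replicate 2 and bars group means. Each has its highest group mean in HFD, and for Plin2 and Pnpla3 both HFD pools lie above all other pools.

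The group means of Plin5 were ordered LFD, LFD+As, HFD, HFD+As, and Plin5 rose between the ends of that order. Its log2 signal was 8.62 and 8.51 in the LFD pools, 8.80 and 8.64 in the LFD+As pools, 8.73 and 8.93 in the HFD pools, and 9.008 and 8.999 in the HFD+As pools. The HFD+As pools lay above all others, the LFD pools below all others, and the LFD+As and HFD pools overlapped. HFD+As exceeded LFD by 0.44 (SE 0.12, 1.36-fold, adjusted p = 0.0276). The steps from LFD to HFD (0.26, adjusted p = 0.476) and from HFD to HFD+As (0.17, adjusted p = 0.374) were not called. Without LFD replicate 1 or 2 or HFD+As replicate 1 or 2 the call was lost at 0.49, 0.39, 0.43 and 0.44, and with the span trend removed it held at 0.44 (adjusted p = 0.0329). With no filter on dim genes the call was lost (adjusted p = 0.0592).

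Plin3 and Plin4 gave no called difference. Plin3, a perilipin that moves between cytosol and new droplets, was at 9.47 and 9.29 in the LFD pools, 9.12 and 9.43 in the LFD+As pools, 9.49 and 9.58 in the HFD pools, and 9.19 and 9.10 in the HFD+As pools. Like Plin2 it had its highest mean in HFD, and HFD+As against HFD stood at -0.39 (SE 0.13, adjusted p = 0.0924), with pools that did not overlap. Plin4, which coats newly formed droplets in adipocytes, was at 7.60 and 7.48 in the LFD pools, 7.56 and 7.35 in the LFD+As pools, 7.23 and 7.32 in the HFD pools, and 7.43 and 7.43 in the HFD+As pools. Of these 4 perilipins it alone had its lowest mean in HFD (-0.26 against LFD, SE 0.12, adjusted p = 0.48). Plin4 and Plin5 are neighbours on chromosome 17 with 0 RefSeq genes between them, and Plin3 lies 9 genes further on. In HFD against LFD these neighbours stood at -0.26, 0.26 and 0.16.

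G0s2, the inhibitor of the lipase made by Pnpla2, had the largest difference of the set. Its log2 signal was 8.51 and 8.52 in the LFD pools, 9.08 and 8.36 in the LFD+As pools, 8.86 and 8.94 in the HFD pools, and 9.26 and 9.22 in the HFD+As pools. The 2 LFD+As pools lay on either side of both LFD pools and differed by 0.71, more than the pools of any other group (at most 0.08). HFD+As exceeded LFD by 0.72 (SE 0.18, 1.65-fold, adjusted p = 0.0168). HFD stood 0.38 above LFD (95% interval -0.001 to 0.758, adjusted p = 0.485) and HFD+As 0.35 above HFD (adjusted p = 0.231), with pools that did not overlap in either case. The HFD+As call held at 0.63 with the span trend removed (adjusted p = 0.0444) and was lost without LFD replicate 1 (0.72), LFD replicate 2 (0.73), HFD+As replicate 1 (0.71) or HFD+As replicate 2 (0.74). The average high-fat effect was 0.45 (SE 0.12, adjusted p = 0.0446). It was not called with the span trend removed (0.39, adjusted p = 0.0833), with quantile normalization (0.49, adjusted p = 0.0585) or with no filter on dim genes (adjusted p = 0.103). Nor was it called without LFD+As replicate 2 (0.27), and was 0.63 without LFD+As replicate 1. The other arrays whose removal ended that call were LFD replicate 1 (0.45), LFD replicate 2 (0.45), HFD replicate 2 (0.43), HFD+As replicate 1 (0.44) and HFD+As replicate 2 (0.46). HFD+As exceeded LFD+As by 0.52 (adjusted p = 0.0735) with all arrays and by 0.39 (adjusted p = 0.197) with the span trend removed. Without LFD+As replicate 1 this difference was 0.88, the only setting that called it, and without LFD+As replicate 2 it was 0.16.

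Pnpla2 itself was lowest on average in HFD+As, without a call. Its log2 signal was 9.72 and 9.54 in the LFD pools, 9.61 and 9.68 in the LFD+As pools, 9.65 and 9.25 in the HFD pools, and 9.22 and 9.26 in the HFD+As pools. The HFD pools lay far apart, one among the low-fat pools and one at the HFD+As level. HFD+As against LFD stood at -0.39 (SE 0.14, fold 0.762, adjusted p = 0.0714) and against LFD+As at -0.41 (adjusted p = 0.0747), in both cases with pools that did not overlap. Both were called, at the same sizes, when either HFD array was left out. With quantile normalization they stood at -0.27 (adjusted p = 0.133 and 0.16) and were not called. A fit to the 2 groups called only the one against LFD+As (adjusted p = 0.0469). HFD+As against LFD was -0.30 without LFD replicate 1 and -0.48 without LFD replicate 2, not called in either case. The average high-fat effect was -0.30 (adjusted p = 0.0822). It was called at -0.40 without HFD replicate 1 and stood at -0.19, not called, without HFD replicate 2. Relative to the LFD mean, the HFD+As pools were thus 0.74 and 0.71 higher for G0s2 and 0.41 and 0.37 lower for Pnpla2.

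Hilpda, the other lipase inhibitor and a gene of the hypoxia response, was dim, between 6.66 and 7.08. It was at 6.66 and 6.74 in the LFD pools, 6.69 and 6.84 in the LFD+As pools, 6.77 and 6.84 in the HFD pools, and 7.08 and 6.85 in the HFD+As pools. Fitted without the filter on dim genes, HFD+As against LFD gave 0.27 (SE 0.12, adjusted p = 0.247 over all genes).

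**Figure D3:**
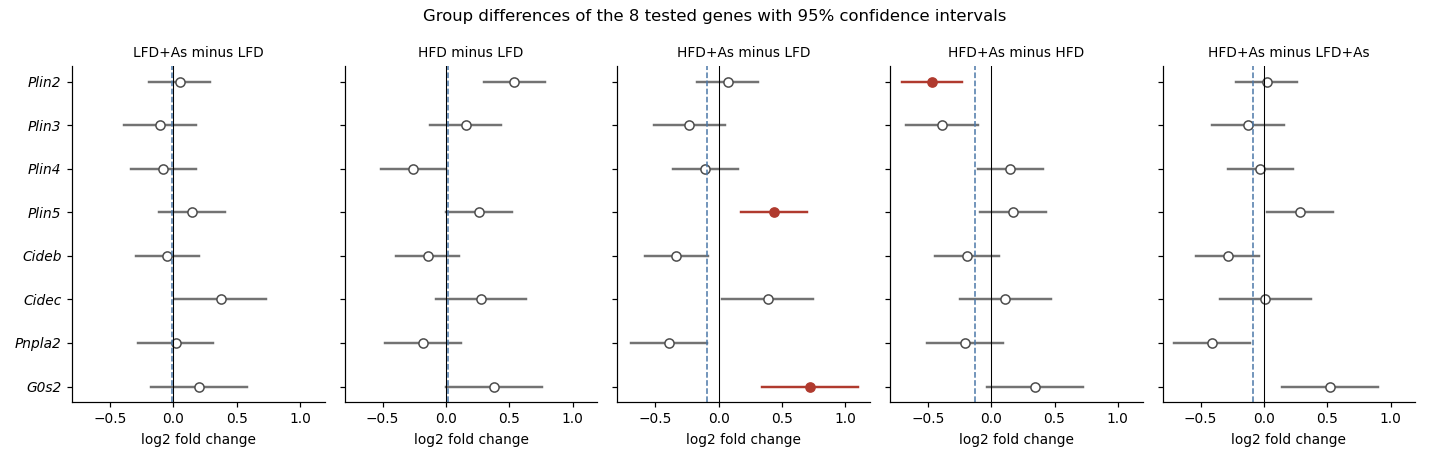
Log2 fold changes (x axis) of the 8 tested genes in the 5 pairwise comparisons; points are estimates from 2 arrays per group, lines 95% confidence intervals, filled red points are called differences, and the dashed line is the median of all 11963 genes. G0s2 and Plin5 are called in HFD+As minus LFD and Plin2 in HFD+As minus HFD.

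Among the CIDE genes none was called. Cideb, the CIDE gene of hepatocytes and the brightest of the 10 genes (99.5th percentile of gene means), was at 13.43 and 13.44 in the LFD pools, 13.32 and 13.46 in the LFD+As pools, 13.31 and 13.27 in the HFD pools, and 13.02 and 13.18 in the HFD+As pools. Both HFD+As pools lay below all others. HFD+As against LFD stood at -0.33 (SE 0.11, adjusted p = 0.0657). It passed with an intensity trend and robust prior in limma (adjusted p = 0.0187) and in no other setting. Quantile normalization gave -0.29 (adjusted p = 0.0583), and a fit to the 2 groups gave adjusted p = 0.113. With 1 array left out the difference lay between -0.412 and -0.255. Cidec, which drives droplet fusion in fatty liver, was at 7.50 and 7.38 in the LFD pools, 8.05 and 7.58 in the LFD+As pools, 7.77 and 7.66 in the HFD pools, and 7.62 and 8.04 in the HFD+As pools. All 6 pools of the other groups lay above both LFD pools, but the LFD+As and HFD+As pools differed by 0.48 and 0.42 within their groups. Against LFD, Cidec stood at 0.37 in LFD+As, 0.28 in HFD and 0.39 in HFD+As (SE 0.17 each, adjusted p = 1, 0.619 and 0.131). These comparisons share the 2 LFD arrays. Cidea, a brown fat gene that fatty livers are known to switch on, was the dimmest of the set. It was at 5.56 and 5.63 in the LFD pools, 5.66 and 5.86 in the LFD+As pools, 5.68 and 5.77 in the HFD pools, and 6.09 and 5.74 in the HFD+As pools. All 8 pools were below the lowest mean signal tested.

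The set did not move as one. Of the 8 tested genes, 5 were positive in HFD against LFD (median 0.21, all genes 0.01), 4 in HFD+As against LFD (median -0.02, all genes -0.10, with 33.4% of all genes positive), and 4 in HFD+As against HFD (median -0.04, all genes -0.13). In LFD+As against LFD 5 were positive (median 0.03), between -0.11 for Plin3 and 0.37 for Cidec. In HFD+As against LFD+As, 4 were positive (median -0.01). There Plin5 stood at 0.29 (SE 0.12) and Cideb at -0.29 (SE 0.11), with pools that did not overlap. In HFD against LFD the pools did not overlap for any droplet gene except Pnpla2, the untested Hilpda and Cidea included, and none was called. The share of all genes with such pools was not computed, so this has no baseline. In these comparisons with LFD the 2 LFD arrays are shared.

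Among 14 genes of other droplet surface proteins, all tested, 0 rose and 2 fell in HFD+As against LFD, a share near the 16.0% of all genes called. Mettl7a1, a methyltransferase-like droplet protein gene, fell by 0.68 (SE 0.15, adjusted p = 0.0109) and Nsdhl, a sterol synthesis enzyme gene, by 0.39 (SE 0.12, adjusted p = 0.0358). The Mettl7a1 call was lost without LFD replicate 1 (-0.66), LFD replicate 2 (-0.70) or HFD+As replicate 1 (-0.63). Nsdhl stood at -0.22 with the span trend removed (adjusted p = 0.222), and its call was also lost without any 1 LFD, LFD+As or HFD+As array (-0.45 to -0.34). A fit to the 2 groups (adjusted p = 0.0534) and no filter on dim genes (adjusted p = 0.0725) ended it as well. None of the 14 passed in HFD against LFD. Plin1, the perilipin of adipocytes, stood there at -0.20 and Hsd17b13, a hepatocyte droplet enzyme gene, at 0.09 (these 2 were chosen after their values were seen).

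Of the 6 tested genes of droplet formation, Gpat4, which encodes an acyltransferase of triglyceride synthesis, fell in HFD+As against LFD+As by 0.47 (SE 0.14, adjusted p = 0.0477). None of the 6 passed in any of the 7 other comparisons. The Gpat4 call was lost with the span trend removed (-0.30), quantile normalization (-0.32, adjusted p = 0.11) or a replicate block (-0.47). A fit to the 2 groups (adjusted p = 0.059) and no filter on dim genes (adjusted p = 0.102) also ended it. It was lost too without either LFD array (-0.47), LFD+As replicate 1 (-0.59), LFD+As replicate 2 (-0.34) or HFD+As replicate 1 (-0.36).

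Among 14 other lipase and cofactor genes, Pnpla3 gave the largest called fall. Pnpla3 encodes a droplet protein of the same family as the Pnpla2 lipase. It was at 8.05 and 8.25 in the LFD pools, 7.79 and 8.02 in the LFD+As pools, 8.33 and 8.80 in the HFD pools, and 7.74 and 7.86 in the HFD+As pools. As for Plin2, both HFD pools were above all others. It fell in HFD+As against HFD by 0.77 (SE 0.15, adjusted p = 0.0276), the only one of the 14 called there (3.63% of all genes called). The call was lost without HFD replicate 2 (-0.53), without HFD+As replicate 1 (-0.71) and with the span trend removed (-0.62, adjusted p = 0.14). Quantile normalization (-0.62, adjusted p = 0.131) and no filter on dim genes (adjusted p = 0.0737) also ended it. Pnpla3 stood 0.41 above LFD in HFD (adjusted p = 0.349). In HFD+As against LFD, 2 of 14 fell (16.0% of all genes called, a like share), the carboxylesterase gene Ces3b by 0.65 (SE 0.14, adjusted p = 0.0116) and the lysosomal lipase gene Lipa by 0.38 (SE 0.11, adjusted p = 0.0416). Ces3b was not called without LFD replicate 1 (-0.70), LFD replicate 2 (-0.60) or HFD+As replicate 1 (-0.71). Lipa stood at -0.22 with the span trend removed (adjusted p = 0.148) and was also not called with a replicate block (-0.37), nor without either LFD array (-0.33 and -0.42), either LFD+As array (-0.37) or HFD+As replicate 1 (-0.31). A fit to the 2 groups (adjusted p = 0.0683) and no filter on dim genes (adjusted p = 0.0818) gave no call for Lipa either. Probes of carboxylesterase genes may bind transcripts of close relatives. Abhd5, whose product activates the Pnpla2 lipase, stood at -0.11 and the hormone-sensitive lipase gene Lipe at -0.38 (adjusted p = 0.0786) in that comparison, both chosen after their values were seen.

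Of 12 genes for transcription factors and coactivators that act on droplet genes, 6 fell and 1 rose in HFD+As against LFD (16.0% of all genes called). The nuclear receptor gene Ppard fell by 1.36 (SE 0.20, adjusted p = 0.00292), the ChREBP gene Mlxipl by 1.21 (SE 0.16, adjusted p = 0.0021) and Srebf1, which encodes the lipogenic factor SREBP1, by 1.14 (SE 0.14, adjusted p = 0.00125). These 3 calls held in all 16 alternative settings. The coactivator gene Ppargc1a fell by 0.85 (SE 0.16, adjusted p = 0.00696) and stood at -0.54 with the span trend removed (adjusted p = 0.0584). Its call was lost without LFD replicate 1 (-0.65) or HFD+As replicate 1 (-0.88). The 1 that rose, named after its values were seen, was the liver X receptor gene Nr1h3, by 0.56 (SE 0.12, adjusted p = 0.0114), and its call was lost without LFD replicate 2 (0.43) or HFD+As replicate 1 (0.51). Foxo1, a forkhead factor gene, and Epas1, a hypoxia-inducible factor gene, were the others that fell (-0.56 each, adjusted p = 0.0172 and 0.0281), also named after their values were seen. With the span trend removed they stood at -0.32 (adjusted p = 0.0864) and -0.33 (adjusted p = 0.118), so 3 of the 6 falls were then called. Foxo1 was not called without LFD replicate 1 (-0.54), LFD replicate 2 (-0.57) or HFD+As replicate 1 (-0.49). Epas1 was not called without LFD replicate 1 (-0.44), LFD replicate 2 (-0.68), HFD+As replicate 1 (-0.50) or HFD+As replicate 2 (-0.62). Nor was Epas1 called with quantile normalization (-0.485, adjusted p = 0.0501) or no filter on dim genes (adjusted p = 0.0644). Against LFD+As the same 6 genes fell and Nr1h3 rose in HFD+As (10.3% of all genes called). Of these 7 calls, Ppard alone held with the span trend removed (-1.43, adjusted p = 0.0285), without LFD+As replicate 2 (-1.58) and without HFD+As replicate 1 (-1.62). With the span trend removed the other falls lay between -0.71 and -0.29 and Nr1h3 stood at 0.51 (adjusted p from 0.0527 to 0.19). They lay between -0.70 and -0.45 without LFD+As replicate 2 and between -0.90 and -0.46 without HFD+As replicate 1, with Nr1h3 at 0.37 in both cases. Leaving out LFD+As replicate 1 (Foxo1 at -0.55, Epas1 at -0.49, Nr1h3 at 0.47), HFD+As replicate 2 (Ppargc1a at -0.66, Epas1 at -0.58, Nr1h3 at 0.47) or either LFD array (Epas1 at -0.52) also ended the calls of the genes given. Quantile normalization ended those of Ppargc1a (-0.56, adjusted p = 0.0563), Foxo1 (-0.39, adjusted p = 0.0695) and Epas1 (-0.43, adjusted p = 0.0934). With no filter on dim genes, Ppard and Mlxipl alone stayed called. In HFD against LFD none of the 12 passed, and in HFD+As against HFD 2 fell, Ppard (-1.50, adjusted p = 0.00354) and Srebf1 (-0.65, adjusted p = 0.0319). Srebf1 was not called there with the span trend removed (-0.50, adjusted p = 0.12), nor without either LFD array (-0.65), HFD replicate 1 (-0.56) or HFD+As replicate 1 (-0.60). Quantile normalization (-0.53, adjusted p = 0.0923) and no filter on dim genes (adjusted p = 0.0808) ended that call too. Ppara, the known activator of Plin2, stood at 0.17 in HFD and -0.10 in HFD+As against LFD (adjusted p = 0.726 and 0.657), and Hif1a at -0.09 and -0.27; both were chosen after their values were seen.

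**Figure D4:**
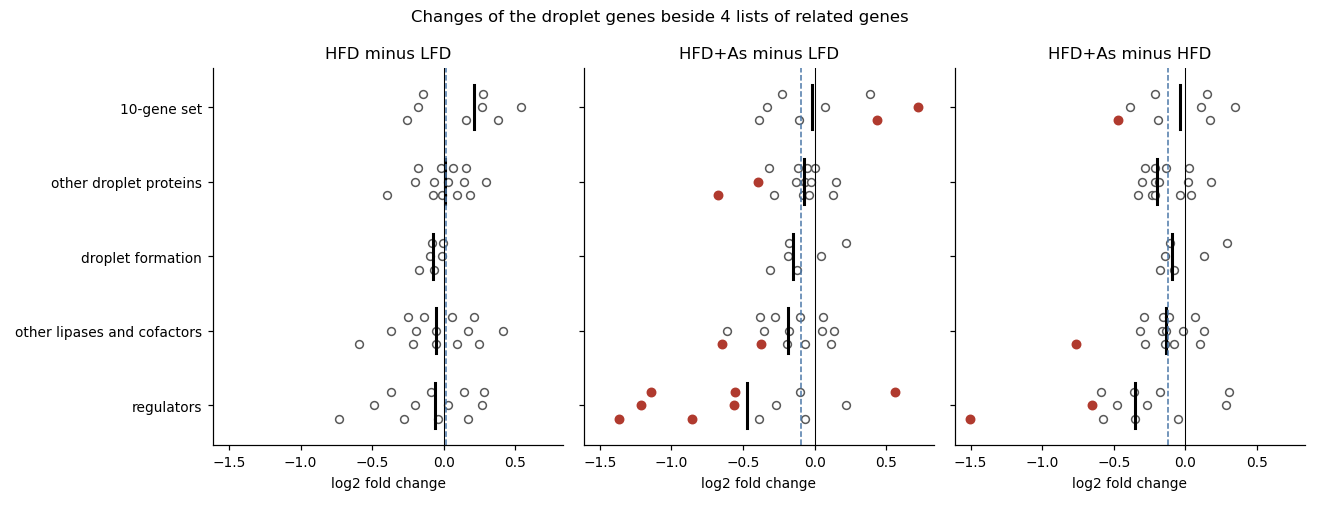
Log2 fold changes (x axis) of the 8 tested genes of the 10-gene set and of 4 lists of related genes in 3 comparisons; each point is a gene, red points are called, black bars are list medians and the dashed line is the median of all 11963 genes. Regulator genes lie furthest left in HFD+As minus LFD (median -0.47), where G0s2 and Plin5 are the called genes of the set.

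The tested genes most like each called gene over the 8 arrays were ranked by Pearson r, as a description over arrays that share groups and the trend on gene span. For Plin2 they were Fosl2 (r = 0.974), which encodes an AP-1 factor, the mitochondrial ribosome recycling gene Mrrf (0.972) and the interleukin receptor gene Il13ra1 (0.958). Il13ra1 was at 10.97 and 10.98 in HFD and between 10.34 and 10.58 elsewhere. For Plin5 they were the mitochondrial chaperone gene Grpel1 (0.988) and the ribosomal protein genes Rps12 (0.985) and Rpl23 (0.985). For G0s2 they were Btf3 (0.957), Xylt1 (0.954) and Htra3 (0.947). Among the droplet genes, G0s2 and Plin5 had r = 0.898 over the 8 arrays and 0.638 for deviations from the group means. The neighbours Plin4 and Plin5 had -0.20 over the arrays and 0.878 for those deviations.

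**Figure D5:**
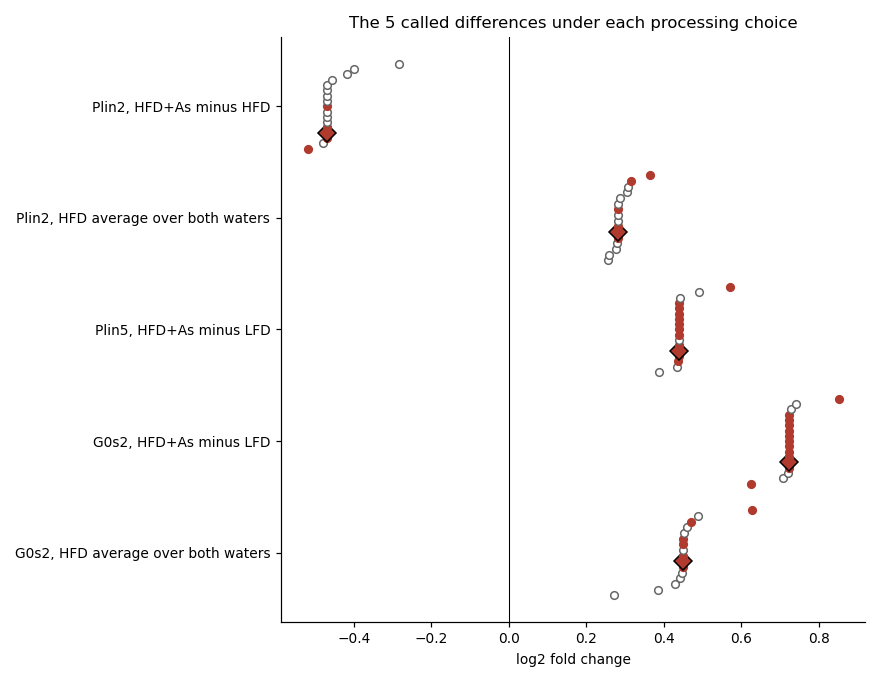
Log2 fold change (x axis) of the 5 called differences under every processing alternative and with each array left out; diamonds are the values reported, circles the alternatives, filled red where the difference is called and open where it is not. All 5 kept their sign, with G0s2 in HFD+As minus LFD between 0.63 and 0.85 and Plin2 in HFD+As minus HFD between -0.52 and -0.28.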

How the data were processed

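Per the labels, liver RNA of 5 mice was pooled for each of 8 arrays of the Affymetrix platform, 2 per group. The authors deposited log2 signals, 1 per transcript cluster and array. The submitters' processing notes name Affymetrix Expression Console 1.0. The method of background correction, normalization and summary is not given in the sources used here, and the number of arrays limits precision. Array medians lay between 7.08 and 7.18, signals correlated at r of 0.974 to 0.991 between arrays, and values were used as deposited.

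Gene names came from the platform annotation: 21789 clusters had 1 symbol, 21698 of these matched RefSeq GRCm38.p6, with 0 symbols replaced. Where a gene had several clusters the brightest on average was used, and the 60% of genes with the highest means were tested (11963). limma 3.58.1 in R 4.3.3 fitted 4 group means to all arrays, with 4 residual and 9.32 prior degrees of freedom, and was tested on simulated data. P-values and SEs rest on a spread between pools that limma takes partly from the gene itself and partly from all tested genes. The p-values carry a Benjamini-Hochberg adjustment over all tested genes of a comparison. All 10 droplet genes are named. Each related list gave up to 4 called genes with the largest change per comparison or, with none, the 2 of smallest p as values only, of which the main comparisons are printed. The members, lists and tests were chosen with earlier results of these data known. Not found on the array by symbol were Ldaf1, Acsl3, Serpina1a and Cfd. Alternatives were quantile normalization, no or a stricter filter (highest 40%), the mean of a gene's clusters, fits to 2 groups, an intensity trend with a robust prior, a replicate block, removal of a lowess trend on log10 gene span in each array, and leaving out each array. RefSeq promoter sequences were matched by symbol.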

Additional observations from a re-analysis of the deposited data

How the results depend on the processing

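The 5 called differences of the droplet genes kept their sign in every alternative, and of 984 values of single droplet genes recomputed, 40 were no longer past the threshold, 15 newly passed it and 0 called signs turned. The number of genes called over the whole array moved as follows. Without the filter on dim genes it was 1 for LFD+As against LFD, 13 for HFD against LFD, 1084 for HFD+As against LFD, 29 against HFD and 165 against LFD+As, 8 for the arsenite average and 172 for the high-fat average, against 8, 55, 1909, 434, 1227, 68 and 915 as reported. Quantile normalization gave 4, 14, 18 (HFD+As against HFD), 678 (against LFD+As) and 10 (arsenite average). It lowered the share of calls that were lower from 77.5% to 56.6% for HFD+As against LFD, from 89.6% to 66.7% against HFD, from 82.2% to 54.6% against LFD+As, from 77.9% to 40% for the arsenite average and from 61% to 50.3% for the high-fat average, and raised it from 25.5% to 50% for HFD and from 62.5% to 75% for LFD+As. With the span trend removed, 1086, 42 and 62 genes were called for HFD+As against LFD, HFD and LFD+As, and 15 for the arsenite average, with 50.6%, 47.6%, 54.8% and 40% lower. The trend with a robust prior gave 751 for HFD+As against HFD, 17 for the interaction and 128 for the arsenite average; the stricter filter gave 6 for the interaction, and a fit to the 2 groups 18 for LFD+As. With each array left out, counts ran from 0 to 26 (LFD+As), 0 to 72 (HFD), 206 to 2050, 24 to 1121 and 17 to 1481 (HFD+As against LFD, HFD and LFD+As), 0 to 23 (interaction), 1 to 145 (arsenite average) and 87 to 1496 (high-fat average). Deviations of same-numbered pools correlated between -0.217 and 0.179 across group pairs. With 2 pools per group, whether same-numbered pools shared a batch cannot be told from these values. With a replicate block HFD+As against HFD gave 230 calls. The causes of these differences were not tested. Signal over background is unknown here, which limits Hilpda and Cidea most.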

Other observations

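The dim genes Hilpda and Cidea both had their highest signal in HFD+As replicate 1 (7.08 and 6.09), with the other 7 arrays at 6.66 to 6.85 and 5.56 to 5.86. Cidec did not share this pool: it was highest in LFD+As replicate 1 (8.05) and HFD+As replicate 2 (8.04). G0s2 was also higher in LFD+As replicate 1 than in replicate 2, by 0.71, and so was Plin5, by 0.16. Pck1, a gene of gluconeogenesis and of glycerol synthesis for triglyceride, stood in the adipocyte list. It rose in HFD+As against LFD by 0.72 (SE 0.20, adjusted p = 0.0305 with limma). It also stood 0.85 above LFD in LFD+As (adjusted p = 0.325) and 0.64 above LFD in HFD (adjusted p = 0.262), not called in either. None of the 4 other tested adipocyte markers was called. Alternative settings are not reported here for Pck1.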
